A study of Danio rerio with 4 samples.

Results

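The genes that start, drive and feed DNA replication were examined in progenitor cells of zebrafish with and without a working tet2 gene. Members were taken by gene symbol: origin, helicase, polymerase, clamp, fork protection, histone deposition and nucleotide genes, of which 73 of the 32434 genes in the count table matched. Of these, 4 (mcm3ap, uhrf1bp1, uhrf1bp1l and dckl1b) matched only through the first letters of their symbols and were set aside, which left 69 replication genes. Reads were too few for a test in 2 of them, pold2 and uhrf1, both with 0 reads in every library, so 67 members were tested among 17242 genes. Whether these 2 genes are silent or their identifiers received no reads in the annotation and counting used was not tested.

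The study compared adult fish homozygous for a small deletion in tet2 (tet2 m/m), which leaves the enzyme without catalytic function, with tet2 wt/wt fish. Tet2 oxidizes methylated cytosine in DNA. Kidney marrow, the blood-forming tissue of fish, was sorted on forward and side light scatter alone, and polyadenylated RNA of the sorted progenitor cells was sequenced in 2 tet2 m/m and 2 tet2 wt/wt libraries. The labels give no further allele, treatment or strain, and the loss of tet2 affects every cell of the fish, not only the sorted ones. Titles put the fish at 4 months and descriptions at 15 months, in both genotypes alike, and the labels do not settle which holds, while the study presents the comparison of expression between genotypes at the age in the titles. The study calls its methylation replicates biological pools and drew RNA from part of the same sorted cells, but neither it nor the labels state what each RNA library holds. P-values rest on the spread between these libraries, after replicate number is allowed for in the main fit and with variance shared across genes. That spread may be technical.

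Replication starts at origins, where the origin recognition complex, CDC6 and CDT1 load rings of MCM2 to MCM7 onto DNA before S phase. CDC45 and the GINS complex turn each ring into the moving helicase, and polymerases alpha, delta and epsilon copy the opened strands with the PCNA clamp, its RFC loader and the single-strand binding protein RPA. The deoxynucleotides come from ribonucleotide reductase, thymidylate synthase and dihydrofolate reductase, and by salvage from thymidine and deoxycytidine kinases. Dividing blood progenitors draw on these steps.

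Total counts were 8838603 to 10710913 per library, and a count of 0 allows up to 0.271 to 0.396 CPM (counts scaled to a common library size, with factors from the trimmed mean of M values), a limit that covers counting error only. Globin transcripts took 7.77% and 10.8% of reads in the wild-type libraries and 4.54% and 3.19% in the mutant ones. Progenitor markers were detected for 22 of 23 listed genes, and 12 of the 19 tested were negative, with a median of -0.13. Called among them were gfi1ab (-1.67) and cmyb (-1.55) lower and fli1a (1.08) higher, all regulators of blood progenitors. Over all genes 1.9% were called lower and 1.8% higher, by the rule given below. The scaling factor of wild-type replicate 2 was 0.858 against 1.03 to 1.07 in the other libraries, which raises its CPM values relative to its reads.

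Most replication genes had small negative fold changes in the mutants, and few passed a test. A gene was called when edgeR's quasi-likelihood test, with the replicate number as a block, gave an adjusted p below 0.05 with a log2 fold change beyond 1 in either direction. By that rule 1 of the 67 members was called lower, the thymidine kinase TK1 (2 of 2), and 0 were called higher, against 1.9% lower and 1.8% higher over all genes. At an adjusted p under 0.05 without the fold threshold, 4 members were lower (TK1 (2 of 2), dut, dck and pole) and 0 higher, against 2.95% and 2.98% of all genes. At an unadjusted p under 0.05 there were 14 lower and 2 higher members, against 8.37% and 8.73% of all genes. DESeq2 with the block, DESeq2 without it and edgeR without it had 0 members under an adjusted p of 0.05 in either direction, with 7, 9 and 11 lower and 0, 1 and 2 higher at an unadjusted p under 0.05. The shares of all genes at that p were 3.35%, 4.59% and 6.76% lower and 3.65%, 5.01% and 7.27% higher in the same order. For the adjusted p alone no such shares were computed in these fits, so the 0 members there have no background beside them.

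Other fits changed what was called in all genes as well as in the members. Where a library was left out, 1 genotype is a single library, so the spread comes from the other genotype alone and the lone library is assumed to vary alike. With 0 members called, all genes were called lower and higher at 0.69% and 0.609% in DESeq2 with the block and 0.992% and 0.905% without it. The shares were 0.795% and 0.702% in edgeR without the block, 0.626% and 0.516% in its bias-adjusted form and 0.737% and 0.626% with globins left out of the totals. Robust fitting (1.89% and 1.75%), RLE scaling (1.71% and 1.58%), no filter (1.77% and 1.63%) and a filter of 1 CPM in 2 libraries (2.33% and 2.06%) called TK1 (2 of 2) alone. Leaving out wild-type replicate 1 (1.5% and 1.62%) called TK1 (2 of 2) and rrm2 lower, and leaving out wild-type replicate 2 (1.34% and 1.13%) called rrm2 higher. Leaving out mutant replicate 1 (2.9% and 2.81%) called rrm2 lower, and leaving out mutant replicate 2 (1.39% and 1.2%) called TK1 (2 of 2), dut, RRM2 (1 of 2) and pole2 lower.

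Fitted log2 fold changes (mutant over wild type) were negative in 48 of 67 members, with a median of -0.25 (-0.24 over the 63 with a mean of at least 1 CPM), compared with 50.7% negative and a median of -0.01 over all genes tested. Levels of the 2 genotypes did not overlap in 25 members that were lower and 9 that were higher in the mutants, against 21.7% and 23.1% of all genes. Among the 63 members with a mean of at least 1 CPM, mutant replicate 1 was the lowest library for 44. That is 69.8%, against 20.6% of all genes. Wild-type replicate 2 was the highest for 38 of the 63, against 3150 of the 12928 genes tested with such a mean. The other libraries did not separate: the median deviation of these members from their gene means was 0.04 in mutant replicate 2 and 0.00 in wild-type replicate 1 (log2). Leaving out mutant replicate 1 moved the median over the members to -0.06, leaving out wild-type replicate 2 to -0.11 and leaving out wild-type replicate 1 to -0.38. In bulk RNA, fewer cells in S phase and less of these transcripts per cell cannot be told apart.

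**Figure D1:**
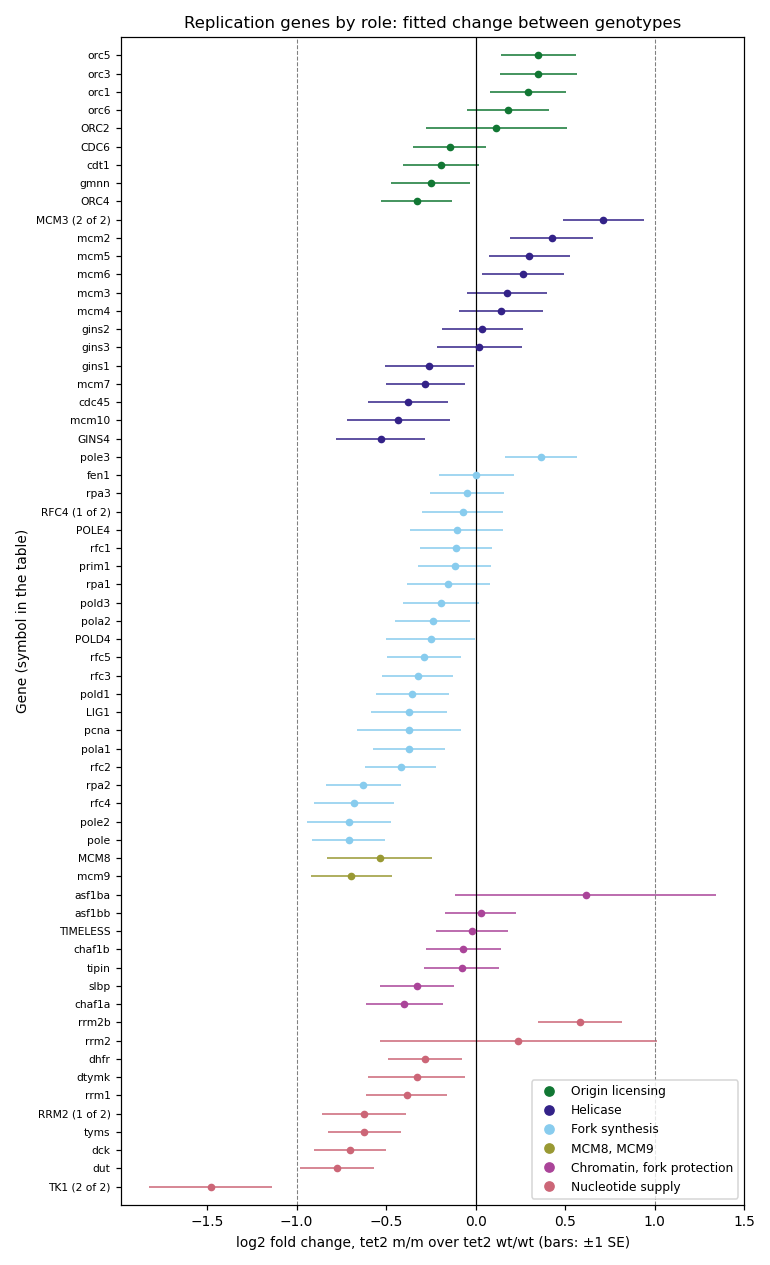
Fitted log2 fold change of each replication gene with a mean of at least 1 CPM (x axis, tet2 m/m over tet2 wt/wt; points with bars of 1 SE), with genes on the y axis grouped and coloured by role; dashed lines mark a log2 fold change of 1 in each direction. Most fork synthesis and nucleotide supply genes sit left of 0 and most MCM2 to MCM7 genes right of it, and TK1 (2 of 2) at -1.48 is the one point beyond a dashed line.

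Among the nucleotide supply genes, 9 of 11 had negative fold changes, with a median of -0.39. TK1 (2 of 2), dut and dck were lower at an adjusted p under 0.05, as were 2.95% of all genes. The positive values were those of rrm2b and rrm2, which encode small subunits of ribonucleotide reductase. For rrm2 the sign depended on the block: edgeR without it gave -0.40. Its mean was 9.4 CPM in the wild-type and 7.0 CPM in the mutant libraries.

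TK1 (2 of 2) encodes a copy of the cytosolic thymidine kinase, which salvages thymidine in S phase. It had 79 and 77 reads in wild-type replicates 1 and 2 against 18 and 57 in mutant replicates 1 and 2, or 8.05, 10.2, 1.84 and 5.15 CPM in that order. Both mutant libraries were below both wild-type ones, and mutant replicate 1 was far below its partner. Wild-type libraries averaged 9.11 ± 1.49 CPM and mutant ones 3.49 ± 2.34 CPM (SD, n = 2 each). The log2 fold change was -1.48 ± 0.34 (SE), at an adjusted p of 0.00593 in edgeR. The call depended on the fit: the adjusted p was 0.164 in edgeR without the block, 0.231 and 0.186 in DESeq2 with and without the block, 0.116 in the bias-adjusted edgeR fit and 0.0941 with globins left out of the totals. Leaving out mutant replicate 1 gave -0.82 (adjusted p = 0.273), leaving out wild-type replicate 2 gave -1.20 (adjusted p = 0.262), and leaving out mutant replicate 2 gave -2.29 (adjusted p = 0.00100). The other copy, tk1, had 13 reads in all (2, 4, 3 and 4 in the same order of libraries), too few to show a difference.

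The gene dut encodes dUTPase, which removes dUTP and yields the precursor of thymidylate. Its levels were 85.8 and 109.9 CPM in wild-type replicates 1 and 2 against 46.6 and 69.2 CPM in mutant replicates 1 and 2. The genotypes did not overlap, and the replicates of each differed by more than 20 CPM. The log2 fold change was -0.77 ± 0.21 (SE, edgeR adjusted p = 0.0192), short of the fold threshold. It was -0.50 (adjusted p = 0.321) without mutant replicate 1 and -1.07 (adjusted p = 0.0119), past both thresholds, without mutant replicate 2.

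Deoxycytidine kinase, dck, phosphorylates salvaged deoxycytidine and other deoxynucleosides. It was at 57.9 and 69.9 CPM in wild-type replicates 1 and 2 against 38.2 and 40.2 CPM in mutant replicates 1 and 2. The mutant libraries lay close together and below both wild-type ones. The log2 fold change was -0.70 ± 0.20 (SE, edgeR adjusted p = 0.0300), and with a library left out in turn it ranged from -0.86 to -0.57. Without wild-type replicate 1 its adjusted p was 0.0302, and it was 0.138 to 0.295 in the other fits with 3 libraries.

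Thymidylate synthase, tyms, makes thymidylate from deoxyuridylate. Its levels were 68.7 and 89.6 CPM in wild-type replicates 1 and 2 against 49.0 and 53.0 CPM in mutant replicates 1 and 2. The groups did not overlap, and the log2 fold change of -0.62 ± 0.20 (SE) did not pass (edgeR adjusted p = 0.0669). Dihydrofolate reductase, dhfr, which renews the folate that thymidylate synthase consumes, was at 28.6, 37.6, 23.0 and 31.7 CPM in wild-type replicates 1 and 2 and mutant replicates 1 and 2, with overlapping groups. Thymidylate kinase, dtymk, overlapped too, at 15.1, 13.7, 7.98 and 16.1 CPM in the same order. Their log2 fold changes were -0.28 ± 0.21 and -0.33 ± 0.27 (SE, edgeR adjusted p = 0.557 and 0.611), and without mutant replicate 1 they were -0.06 and 0.15.

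**Figure D2:**
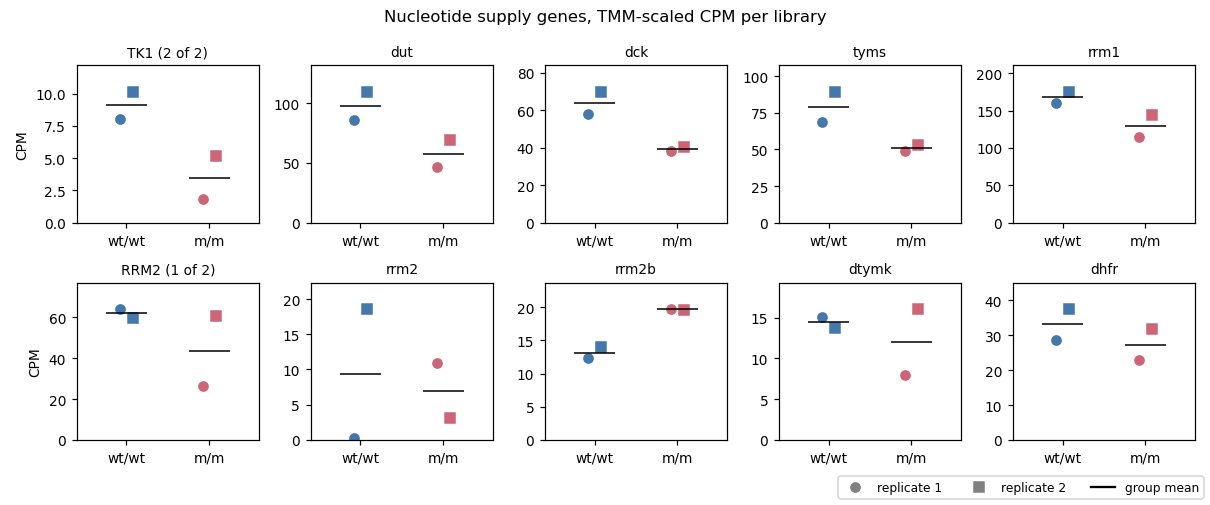
Level of 10 nucleotide supply genes in each library (y axis, scaled CPM from 0, a separate scale per gene), by genotype on the x axis; circles are replicate 1, squares replicate 2 and lines the mean of 2 libraries. TK1 (2 of 2), dut, dck, tyms and rrm1 are lower in both mutant libraries than in both wild-type ones, and rrm2b is higher in both.

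Ribonucleotide reductase, which makes deoxynucleotides from ribonucleotides, pairs a large subunit (rrm1) with a small subunit (rrm2 or the p53-inducible rrm2b of mammals). The large subunit rrm1 was at 160.7 and 175.5 CPM in wild-type replicates 1 and 2 against 114.7 and 144.1 CPM in mutant replicates 1 and 2. The groups did not overlap, and the log2 fold change was -0.39 ± 0.23 (SE, edgeR adjusted p = 0.406), or -0.22 with mutant replicate 1 left out. By contrast rrm2b was at 12.3 and 13.99 CPM in wild-type replicates 1 and 2 against 19.8 and 19.6 CPM in mutant replicates 1 and 2, above both wild-type libraries. Its log2 fold change of 0.58 ± 0.23 (SE) did not pass either (edgeR adjusted p = 0.165) and was positive in 13 of 13 alternatives.

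The main small subunit has 2 identifiers, RRM2 (1 of 2) and rrm2, whose reads did not keep 1 ratio from library to library. RRM2 (1 of 2) had 630 and 454 reads in wild-type replicates 1 and 2 against 257 and 672 in mutant replicates 1 and 2, while rrm2 had 2, 141, 107 and 34. The share of rrm2 in the reads of both was thus 0.316% and 23.7% in the wild-type libraries and 29.4% and 4.82% in the mutant ones, so it did not follow genotype. Whether the authors' counting splits the reads of near-identical copies was not tested. Taken alone, rrm2 had a log2 fold change of 0.24 ± 0.78 (SE, edgeR adjusted p = 0.931) that went to 5.01 with wild-type replicate 2 left out (adjusted p = 9.00e-05). Leaving out wild-type replicate 1 gave -1.44 (adjusted p = 0.0172), and leaving out mutant replicate 1 gave -1.58 (adjusted p = 0.0159). RRM2 (1 of 2) was at -0.62 ± 0.23 (SE, edgeR adjusted p = 0.129), at -0.03 without mutant replicate 1 and at -1.24 without mutant replicate 2 (adjusted p = 0.00182).

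Summed over both identifiers, the small subunit had 632 and 595 reads in wild-type replicates 1 and 2 against 364 and 706 in mutant replicates 1 and 2. At 64.4, 78.5, 37.2 and 63.7 CPM the mutant libraries were the lower ones, although wild-type replicate 1 and mutant replicate 2 nearly met. The log2 fold change of the sum was -0.54 ± 0.21 (SE, edgeR adjusted p = 0.131). The ratio of rrm2b reads to these summed reads was 0.192 and 0.178 in the wild-type libraries and 0.530 and 0.307 in the mutant ones, with no overlap.

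**Figure D3:**
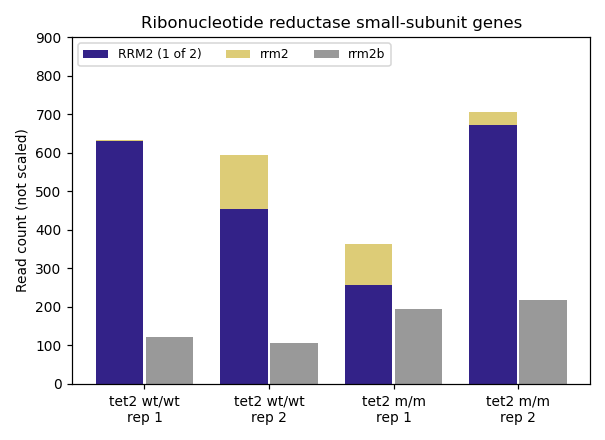
Unscaled read counts (y axis) of the ribonucleotide reductase small-subunit genes in each of the 4 libraries (x axis); stacked bars are the 2 identifiers of rrm2 and grey bars are rrm2b. The rrm2 share of the stack is 0.316%, 23.7%, 29.4% and 4.82% from left to right, and rrm2b has 121 and 106 reads in the wild-type and 193 and 217 in the mutant libraries.

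The helicase genes did not move one way as a group: 8 of 15 had positive fold changes and the median was 0.02. The ring subunits MCM2 to MCM7 had a median of 0.26, with 6 of 7 positive. In 4 of them (mcm2, mcm5, mcm6 and MCM3 (2 of 2)) both mutant libraries were above the wild-type range, against 23.1% of all genes. None of the 7 passed the test, and the median was 0.17 with mutant replicate 2 left out. Setting these subunits apart was decided after their values had been seen.

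MCM3 (2 of 2), one of the 2 copies of a ring subunit, was at 13.3 and 15.4 CPM in wild-type replicates 1 and 2 against 22.6 and 24.3 CPM in mutant replicates 1 and 2. Both mutant libraries were above both wild-type ones, with a log2 fold change of 0.71 ± 0.23 (SE, edgeR adjusted p = 0.0569). The copy mcm3 overlapped between genotypes, at 21.0, 17.7, 20.4 and 23.4 CPM in the same order. Summed over both copies, mcm3 was at 34.2 and 33.1 CPM in wild-type and at 43.0 and 47.7 CPM in mutant libraries, a log2 fold change of 0.43 ± 0.20 (SE, edgeR adjusted p = 0.272).

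Ring subunit mcm2 was at 145.0 and 163.2 CPM in wild-type replicates 1 and 2 against 192.2 and 221.9 CPM in mutant replicates 1 and 2. The levels of mcm5 were 138.1, 147.5, 166.4 and 185.7 CPM in the same order, and those of mcm6 were 156.7, 144.8, 170.2 and 192.2 CPM. In all 3 genes both mutant libraries were above both wild-type ones. The log2 fold changes were 0.42 ± 0.23, 0.30 ± 0.23 and 0.26 ± 0.23 (SE), with edgeR adjusted p-values of 0.361, 0.570 and 0.642. Another subunit, mcm4, overlapped at 176.8, 187.5, 180.4 and 223.6 CPM (log2 fold change 0.14, and -0.02 without mutant replicate 2). The remaining subunit, mcm7, lay on the other side of 0: its 123.0, 169.8, 99.0 and 143.0 CPM overlapped and gave a log2 fold change of -0.28 ± 0.22 (SE, edgeR adjusted p = 0.592). With wild-type replicate 2 or mutant replicate 1 left out, mcm7 was at -0.03 and -0.04.

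Of the factors that make the ring a helicase, 3 of the 5 GINS and CDC45 genes were negative and 4 of the 5 overlapped between genotypes. GINS4, a subunit of the GINS complex, was at 12.6 and 17.6 CPM in wild-type replicates 1 and 2 against 8.19 and 12.9 CPM in mutant replicates 1 and 2, so that wild-type replicate 1 and mutant replicate 2 overlapped. Its log2 fold change was -0.53 ± 0.25 (SE, edgeR adjusted p = 0.263), and it was -0.22 with mutant replicate 1 left out and -0.27 with wild-type replicate 2 left out. The 5 genes ranged from -0.53 to 0.04, and mcm10 and cdc45 were lower in both mutant libraries than in both wild-type ones. The MCM3 relative mcm3l had 5, 7, 0 and 1 reads in wild-type replicates 1 and 2 and mutant replicates 1 and 2. The mutant to wild-type ratio was 0.0695, with an exact interval from counting error alone (95%, Clopper-Pearson) of 0.00163 to 0.470. It did not pass the test (edgeR adjusted p = 0.206).

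**Figure D4:**
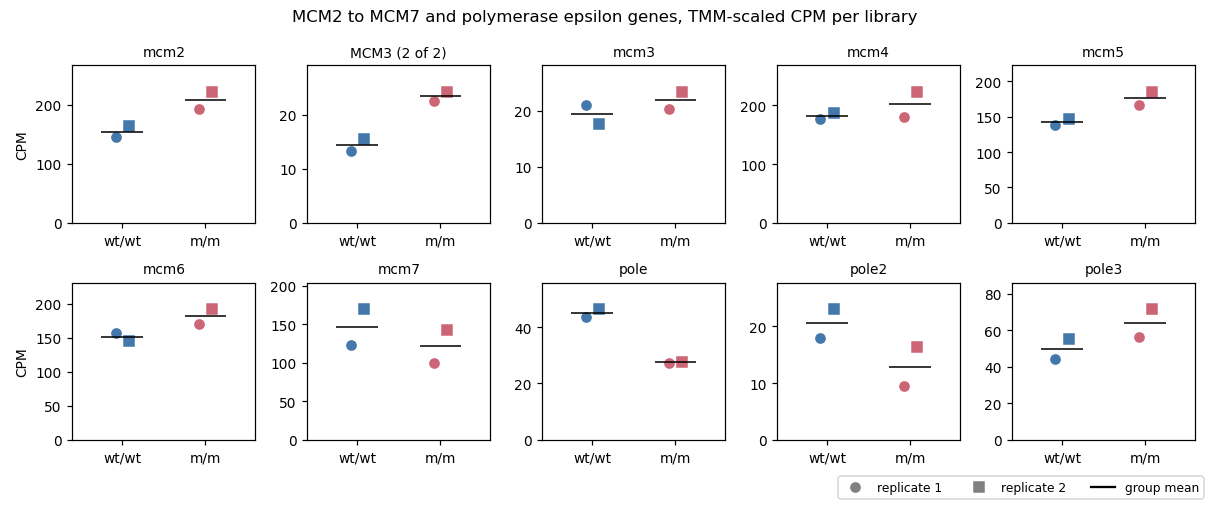
Level of the MCM2 to MCM7 genes and of polymerase epsilon genes in each library (y axis, scaled CPM from 0, a separate scale per gene), by genotype on the x axis; circles are replicate 1, squares replicate 2 and lines the mean of 2 libraries. Both mutant libraries are above both wild-type ones for mcm2, MCM3 (2 of 2), mcm5, mcm6 and pole3, and below them for pole and pole2.

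In fork synthesis, the polymerases and the proteins that load and hold them, 20 of 22 genes had negative fold changes. The median was -0.27, and with a library left out in turn it ranged from -0.42 (wild-type replicate 1) to -0.18 (mutant replicate 1). The genotypes did not overlap in 12 genes that were lower and 1 that was higher, pole3, against 21.7% and 23.1% of all genes. Lower at an adjusted p under 0.05 was 1 gene, pole, against 2.95% of all genes.

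The catalytic subunit of polymerase epsilon, pole, copies the leading strand. It was at 43.4 and 46.5 CPM in wild-type replicates 1 and 2 against 27.2 and 27.7 CPM in mutant replicates 1 and 2. Replicates of a genotype were close, 44.9 ± 2.15 and 27.5 ± 0.357 CPM (SD, n = 2 each), and the groups stood well apart. The log2 fold change was -0.71 ± 0.20 (SE, edgeR adjusted p = 0.0316), below the fold threshold, and stayed between -0.78 and -0.67 with each library left out in turn. The adjusted p in those 4 fits was 0.0915 to 0.222, and it was 0.104 in edgeR without the block and 0.347 in DESeq2 with it.

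Its partner pole2, a non-catalytic subunit of the same enzyme, was at 17.9 and 23.1 CPM in wild-type replicates 1 and 2 against 9.41 and 16.3 CPM in mutant replicates 1 and 2. The fitted difference was close to that of pole but rested more on mutant replicate 1, with a log2 fold change of -0.71 ± 0.24 (SE, edgeR adjusted p = 0.0748) that was -0.33 without that library. It was -1.12 (adjusted p = 0.0346) without mutant replicate 2. The histone-fold subunit pole3, which mammalian cells also use in chromatin remodelling, went the other way, at 44.1, 55.0, 56.2 and 71.7 CPM (log2 fold change 0.36 ± 0.20, SE, with an adjusted p of 0.363 in edgeR). It is named here because its values were seen to differ from those of its partners.

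The clamp loader RFC was negative in 6 of 6 identifiers, with a median of -0.31. Its subunit rfc4 was at 19.4 and 27.6 CPM in wild-type replicates 1 and 2 against 12.7 and 16.4 CPM in mutant replicates 1 and 2, without overlap (log2 fold change -0.68 ± 0.23, SE, with an adjusted p of 0.0720 in edgeR). The other copy, RFC4 (1 of 2), overlapped at 16.3 to 18.9 CPM, and the sum of both gave -0.38 ± 0.20 (SE, edgeR adjusted p = 0.341). Another subunit, rfc2, was at 48.8, 58.6, 33.6 and 47.6 CPM in the same order of libraries, again without overlap. Its log2 fold change of -0.42 ± 0.20 (SE) had an unadjusted edgeR p of 0.0449 and an adjusted p of 0.277, and was -0.18 without mutant replicate 1.

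Of the RPA subunits, which coat single-stranded DNA, rpa2 was at 100.5 and 129.5 CPM in wild-type replicates 1 and 2 against 69.2 and 78.8 CPM in mutant replicates 1 and 2. The groups did not overlap, and the log2 fold change was -0.63 ± 0.21 (SE, edgeR adjusted p = 0.0764). The large subunit rpa1 overlapped at 180.3, 191.6, 152.0 and 184.1 CPM in the same order, with a log2 fold change of -0.15 ± 0.23 (SE, edgeR adjusted p = 0.828). The sliding clamp pcna had 5656 and 5287 reads in wild-type replicates 1 and 2 against 4433 and 5860 in mutant replicates 1 and 2, or 576, 698, 453 and 529 CPM. Both mutant libraries were below both wild-type ones, but the log2 fold change of -0.37 ± 0.29 (SE) did not pass (edgeR adjusted p = 0.584). The other fork synthesis genes lay between -0.37 (pola1, LIG1) and 0.00 (fen1, the nuclease that trims Okazaki fragments).

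Nucleotide supply was then set against the fork, taken as the helicase and fork synthesis genes together. The median log2 fold change was -0.39 over 11 nucleotide supply genes and -0.25 over 37 fork genes, a difference of -0.13. Each median alone varied more than that between replicates, with an SD of 0.17 for the fork and 0.20 for nucleotide supply (log2). In both genotypes both medians were higher in replicate 2, so they moved together and these SDs do not measure the spread of the difference. As deviations from gene means, the fork was at 0.02 and 0.21 in wild-type and -0.21 and 0.06 in mutant replicates 1 and 2. Nucleotide supply was at 0.17, 0.41, -0.37 and -0.04 in the same order. In these deviations nucleotide supply was thus above the fork in both wild-type libraries and below it in both mutant ones. Each gene was centred on its mean over the same 4 libraries. That order therefore follows in part from the fold changes and is not separate support for them. These deviations cover members with a mean of at least 1 CPM, and no SD of the difference within libraries was computed. With a filter of 1 CPM in 2 libraries the difference was -0.26, and with a library left out in turn it was -0.16 to -0.38, so its sign held while its size did not. The fork median went to -0.06 with mutant replicate 1 left out and to -0.12 with wild-type replicate 2 left out. That of nucleotide supply went to -0.22 with mutant replicate 1 left out, to -0.66 with wild-type replicate 1 left out and to -0.69 with mutant replicate 2 left out.

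In summed CPM, which long and abundant transcripts dominate, nucleotide supply amounted to 19.6% and 20.6% of the fork genes in wild-type replicates 1 and 2 and to 14.8% and 16.3% in mutant replicates 1 and 2. The mutant libraries were thus the lower pair. Against fork synthesis alone the shares were 29.7% and 30.6% in the wild-type and 24.8% and 27.5% in the mutant libraries, again without overlap. The ratio of fork synthesis to MCM2 to MCM7 was 2.19 and 2.32 in the wild-type and 1.604 and 1.587 in the mutant libraries, so the fork genes themselves divided. In all, 16 such ratios were computed, and all but the first were chosen after values had been seen. With 2 libraries against 2 the smallest p of an exact two-sided permutation test is 0.333, so these ratios are given without a test.

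**Figure D5:**
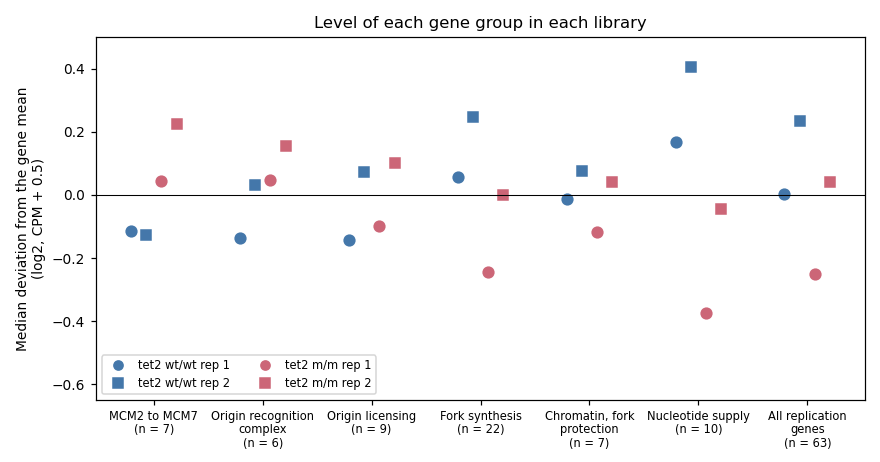
Median deviation of each gene group from its genes' own means in each library (y axis, log2 of CPM + 0.5), by group on the x axis; blue is tet2 wt/wt, red tet2 m/m, circles replicate 1 and squares replicate 2. Nucleotide supply runs from 0.41 in wild-type replicate 2 to -0.37 in mutant replicate 1, while MCM2 to MCM7 is higher in both mutant libraries (0.04 and 0.23) than in both wild-type ones (-0.11 and -0.13).

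The 9 origin licensing genes had a median of 0.12 that became -0.25 without mutant replicate 2, and none had an unadjusted p under 0.05. In the origin recognition complex 5 of 6 subunits were positive. Both mutant libraries were above both wild-type ones for orc1, orc3 and orc5, as for 23.1% of all genes. ORC4, another subunit, was the exception, at 55.6 and 66.5 CPM in wild-type replicates 1 and 2 against 43.0 and 54.6 CPM in mutant replicates 1 and 2. Its levels did not overlap, with a log2 fold change of -0.33 ± 0.20 (SE, edgeR adjusted p = 0.433) that was -0.16 with mutant replicate 1 left out and -0.20 with wild-type replicate 2 left out. The loader CDC6 overlapped at 38.01, 51.6, 31.5 and 50.7 CPM in the same order, and its log2 fold change of -0.15 turned positive with mutant replicate 1 (0.18) or wild-type replicate 2 (0.10) left out. The licensing factor cdt1 and its inhibitor gmnn also overlapped, with log2 fold changes of -0.19 and -0.25.

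The relatives MCM8 and mcm9, which form a helicase of homologous recombination and are not part of the replication ring, were both lower in the mutants. The levels of mcm9 were 19.8 and 25.5 CPM in wild-type replicates 1 and 2 against 12.7 and 15.2 CPM in mutant replicates 1 and 2 (log2 fold change -0.69 ± 0.23, SE, with an adjusted p of 0.0671 in edgeR). Those of MCM8 were 9.07, 9.37, 5.42 and 7.40 CPM in the same order (log2 fold change -0.54 ± 0.29, SE, with an adjusted p of 0.364 in edgeR). Neither gene overlapped between genotypes, and neither passed the test.

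Among the histone deposition and fork protection genes the median was -0.07 over 8 tested. The large subunit of chromatin assembly factor, chaf1a, was at 116.1 and 143.0 CPM in wild-type replicates 1 and 2 against 83.1 and 115.1 CPM in mutant replicates 1 and 2, a narrow separation (log2 fold change -0.40 ± 0.22, SE, with an adjusted p of 0.356 in edgeR). With mutant replicate 1 or wild-type replicate 2 left out, the log2 fold change of chaf1a was -0.17 and -0.24. The histone mRNA binding protein slbp overlapped at 78.3, 101.2, 58.4 and 86.0 CPM in the same order, with a log2 fold change of -0.33 ± 0.21 (SE, edgeR adjusted p = 0.461). One of the 2 identifiers of the histone chaperone asf1ba had 6 and 6 reads in the wild-type and 0 and 0 in the mutant libraries, a mutant to wild-type ratio of at most 0.300 by the same exact interval (edgeR adjusted p = 0.0997). The other identifier had 17 reads in the wild-type and 32 in the mutant libraries, and the sum of both had a log2 fold change of -0.14 ± 0.62 (SE, edgeR adjusted p = 0.949). The fork protection genes TIMELESS and tipin lay at -0.02 and -0.08.

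Other genes of the same processes behaved unevenly. The calls below stand against 1.9% lower and 1.8% higher over all genes. Of 43 tested replication genes outside the symbol rule, 35 were negative, with a median of -0.30, and 1 was called, CTC1, part of the complex that helps polymerase alpha at telomeres (log2 fold change -1.40, edgeR adjusted p = 0.00978). Of 60 genes of purine and pyrimidine synthesis 39 were positive, with a median of 0.14. Called there were AK1, an adenylate kinase, which fell (log2 fold change -1.06, edgeR adjusted p = 0.00541), and adssl1, mthfd1l, impdh1a and ITPA (1 of 2), which rose by 1.06 to 1.53. The E2F and G1/S list had a median of -0.20 over 38 genes, and ccna2 (-1.14), ccnd2a (-1.29) and cdkn2c (-1.21), a pair of cyclins and a CDK inhibitor, were called lower. The mitosis list had a median of -0.91 with 49 of 49 genes negative and 17 called lower, and its summed level was 4027 and 4226 CPM in the wild-type and 2130 and 2374 CPM in the mutant libraries, against 3683, 4258, 3183 and 3853 CPM for the replication genes.

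Some lists of markers of other cells separated by genotype beside these results, and others overlapped. Among all genes, 1.9% were called lower and 1.8% higher. Red cell markers (28 matched, 2 at 0) summed to 52870 and 83710 CPM in the wild-type and 29450 and 22730 CPM in the mutant libraries. Of 23 red cell genes tested 20 were negative (median -0.85), 4 were called lower and none higher. B cell markers (17 matched, 1 at 0) summed to 605 and 526 CPM in the wild-type and 382 and 286 CPM in the mutant libraries, with 9 of 15 tested genes called lower. Neutrophil markers (17 matched, none at 0) overlapped in their sums, at 5004 and 3426 CPM in the wild-type and 4479 and 8495 CPM in the mutant libraries. Still, 13 of the 17 neutrophil genes were positive (median 0.80), and 2 were called higher. At an unadjusted edgeR p under 0.05, 11 of them were higher and 1 lower, against 8.73% and 8.37% of all genes. Thrombocyte markers (11 matched, none at 0) were at 494 and 441 CPM in the wild-type and 646 and 628 CPM in the mutant libraries. Of these 11 genes 9 were positive (median 0.33), and 1, f5, was called higher. T and NK cell markers (13 matched, none at 0) were at 214 and 281 CPM in the wild-type and 160 and 180 CPM in the mutant libraries. However, 10 of the 13 T and NK cell genes had positive fold changes and none was called. Macrophage markers (29 matched, 2 at 0) and kidney tubule markers (15 matched, 2 at 0) overlapped in their sums, at 3061 to 4888 CPM and 226 to 464 CPM. Of 27 macrophage genes tested 6 were called lower and 4 higher, and of 10 kidney tubule genes 8 were positive (median 0.81) and none was called. The progenitor list (23 matched, 1 at 0) summed to 2373 and 2196 CPM in the wild-type and to 1192 in each mutant library. That difference lay largely in 1 gene, cmyb, at 1624 and 1592 CPM in wild-type replicates 1 and 2 against 496 and 608 CPM in mutant replicates 1 and 2. The median log2 fold change of the list was -0.13. The part of cell composition in the replication results was not tested.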

How the data were processed

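RNA was measured in 4 libraries, 2 per genotype, grouped and numbered by the sample labels. The authors aligned single-end reads with STAR 2.3.0 and used bedtools 2.16.1 with Ensembl genes of Zv9 for the deposited raw read count per gene; no source used here says how strand, overlapping genes and multi-mapping reads were handled. Reads of near-identical copies are therefore uncertain, and 5 members (tk1, rrm2, mcm3, rfc4 and asf1ba) have 2 identifiers each. The replicate pairs differed by more than counting error, with a chi-square per degree of freedom of 18.8 in the wild type and 16.7 in the mutants. Pairs across genotypes were at 19.5 to 62.05. The lowest of these, replicate 1 of each genotype, was nearly as alike as the wild-type pair. Of the columns, 0 had no sample.

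Genes with more than 5 reads in all were scaled by TMM and tested with edgeR 4.0.16 (quasi-likelihood F-test, two-sided, older form of the fit, replicate number as a block, R 4.3.3), with Benjamini-Hochberg adjustment over 17242 genes. The filter, thresholds and block follow the study, which used DESeq2. Here DESeq2 with the block called 105 genes higher and 119 lower, the same counts that the study reports at 4 months. That fit called 0 replication members. Standard errors were the size of the log2 fold change divided by the root of F. With the block 1 residual degree of freedom is left per gene, and the test draws each gene's variance toward that of other genes. Its p-values therefore do not rest on the replicates of that gene alone. The edgeR test was also run on simulated counts without any replicate or cell composition effect, which cannot show how many calls here are false.

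The members, roles and lists were chosen with earlier results of these data known, as was the fit: it called 639 genes, whereas DESeq2 1.42.0, edgeR without the block, the bias-adjusted form and totals without globins called 197 to 327. The 4 genes set aside were judged after the matches had been seen. Values per library were given for genes that supply nucleotides, had an unadjusted p under 0.05, belong to MCM2 to MCM7 or are pcna. The 2 most abundant genes of each role had them too. Other genes, among them pole3, mcm10, cdc45, fen1 and orc1, were named outside this rule with their values known. Other alternatives were the scaling, the filter, robust fitting, summed copies and each library left out.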

Additional observations from a re-analysis of the deposited data

How the results depend on the processing

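Over all genes, 639 were called with the replicate block and 258 without it; DESeq2 called 224 with the replicate block and 327 without it, the bias-adjusted fit 197, the fit with totals without globins 235, and fits with a library left out 412 to 940. In these 5 fits on all libraries 0 replication members were called; with a library left out 0 to 4 were called lower and 0 to 1 higher. The median over members was -0.38 to -0.062 with a library left out, that of fork members -0.34 to -0.060 and that of nucleotide supply members -0.69 to -0.22. Under robust fitting, RLE scaling and both other filters TK1 (2 of 2) was the 1 member called, and keeping the 4 genes matched by the start of their symbol left the number of members called lower at 1. Among 455 values of 34 named genes under the alternatives, 12 reversed sign. Of these, rrm2 was at -0.40 without the replicate block, -0.44 in DESeq2 without the replicate block and, with copies summed (added after seeing the data), -0.54 with and -0.50 without the replicate block. With a library left out, rrm2 ranged from -1.58 to 5.01, CDC6 from -0.51 to 0.18, mcm4 from -0.016 to 0.29, dtymk from -0.85 to 0.15 and tk1 from -0.66 to 0.67. The causes were not tested. Replicate numbers are not shown to pair the libraries: same-numbered deviations correlated at 0.0954 over 17242 genes. Over the 63 members with a mean of at least 1 CPM the correlation was -0.607, and over the 62 without rrm2 it was -0.0669. Fits without a library cannot hold the block and compare with the 258. With 1 residual degree of freedom, small differences could not be detected.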
